A study of Homo sapiens with 18 samples.

Results

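The genes described here are 8 genes of Schwann cells and myelin, PMP22, MBP, S100B, GAP43, EGR2, CNP, GFRA1 and POU3F1, out of 58870 genes in the count table, each matched to 1 row by its symbol. They were measured by RNA sequencing of WM164, SKMel28 and A375 cells, which are established human melanoma lines, in 6 groups of 3 libraries. In each line, 1 group overexpressed MAFG and the other overexpressed GFP as the control. MAFG is a small MAF protein, a DNA-binding partner of larger transcription factors that has no activation domain of its own. All 6 groups carried a lentiviral construct with the EF1α promoter and blasticidin resistance, and the ectopic MAFG bore a Myc-DDK tag, so that the GFP cells shared the vector, the infection and the selection. The levels and MAFG responses of the 8 genes in these same libraries were known when they were named, so they were in effect chosen by the values described here, and for this reason their values are given with errors and with no p-value. A second set of 113 other genes, in which the MAFG response was tested, is described after them. It holds genes of Schwann cells and myelin and paralogs of the 8 genes. The lists of this set and the tests were also chosen with earlier results of these data known, which limits their p-values.

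Schwann cells are the glia of peripheral nerve. Like melanocytes, they descend from the neural crest, and both lineages depend on the transcription factor SOX10. An immature Schwann cell that contacts a large axon receives neuregulin signals through ERBB3, switches on POU3F1 (also called OCT6) and then EGR2 (also called KROX20), and EGR2 together with SOX10 turns on the genes of compact myelin. Among the 8 genes, MBP holds the cytoplasmic faces of the myelin membrane together, PMP22 is a membrane protein of compact peripheral myelin whose dosage changes cause hereditary neuropathy, and CNP is a phosphodiesterase that keeps cytoplasmic channels in myelin open. S100B is a calcium-binding protein used as a marker of both Schwann cells and melanoma. GAP43, a growth-cone protein, and GFRA1, the co-receptor that binds GDNF, mark immature, non-myelinating and injured Schwann cells.

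The genes lie on 6 chromosomes of GRCh38, and all sequence and position information below uses this build. PMP22 spans chr17:15229773-15272292 on the minus strand and CNP chr17:41966763-41977740 on the plus strand, MBP chr18:76978827-77133683 on the minus strand, S100B chr21:46598604-46605208 on the minus strand, GAP43 chr3:115623510-115721490 on the plus strand, EGR2 chr10:62811996-62819167 and GFRA1 chr10:116056925-116276803 on the minus strand, and POU3F1, a gene of 1 exon, chr1:38043829-38046793 on the minus strand. In the GENCODE release 44 annotation, CNP shares 437 exonic bases with DNAJC7 on the opposite strand, MBP 1630 bases and GFRA1 421 bases with an opposite-strand lncRNA, PMP22 582 bases with an unnamed opposite-strand transcript, and EGR2 145 bases with a lncRNA on its own strand. Whether strand was used in counting is not given in the sources used here, and reads in these stretches cannot be assigned with certainty. S100B, GAP43 and POU3F1 shared no exonic base with another gene.

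The promoters of POU3F1 and EGR2 are shown because both regulators were lower with MAFG in SKMel28 cells, and that of GAP43 because it was detected only in MAFG libraries. Each sequence holds the 250 bases before a RefSeq transcription start in GRCh38.p14, read 5′ to 3′ on the strand of the gene, with motif matches in capitals. POU3F1 has the window chr1:38046794-38047043, the EGR2 start shown, the second of 3, has chr10:62818776-62819025, and GAP43 has chr3:115623260-115623509.
POU3F1: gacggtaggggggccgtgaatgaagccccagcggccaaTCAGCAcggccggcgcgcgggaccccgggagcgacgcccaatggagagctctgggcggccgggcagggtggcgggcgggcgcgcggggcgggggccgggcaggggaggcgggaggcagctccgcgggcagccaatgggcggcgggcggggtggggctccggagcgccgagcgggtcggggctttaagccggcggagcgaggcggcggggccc
EGR2: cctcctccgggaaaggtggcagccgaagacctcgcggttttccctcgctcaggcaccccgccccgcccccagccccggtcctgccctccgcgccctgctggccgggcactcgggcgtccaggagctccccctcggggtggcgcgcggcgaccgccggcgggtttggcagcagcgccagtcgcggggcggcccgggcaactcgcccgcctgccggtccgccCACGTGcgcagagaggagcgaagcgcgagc
GAP43: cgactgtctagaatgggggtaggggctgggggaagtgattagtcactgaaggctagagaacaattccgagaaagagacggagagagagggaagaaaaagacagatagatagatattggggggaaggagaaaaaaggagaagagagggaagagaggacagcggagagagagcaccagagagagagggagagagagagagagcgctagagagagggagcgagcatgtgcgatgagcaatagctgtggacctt
The capitals in POU3F1 mark an arm of the MAF recognition element, TGCTGA on the opposite strand, at bases -212 to -207 from the start, and those in EGR2 mark an E-box, CACGTG, at bases -30 to -25. This EGR2 start is printed because it holds a match, and the other 2 starts of EGR2 held none of the motifs. GAP43 held none of the 5 motifs searched on both strands. Among 35116 RefSeq promoter windows of the same length, 14% held the MAF element arm TGCTGA, 6.34% the E-box CACGTG, 6.57% TGANTCA (the core shared by AP-1 and the full MAF element), 2.52% the M-box TCATGTG and 8.41% the EGR site GCGNGGGCG. TGANTCA and the M-box were in none of the windows of the 7 genes with a promoter in the table, and 1 start each of PMP22 and GFRA1 held an EGR site. A match describes the letters only. S100B was not among the promoters.

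The sum of counts per library, its depth, was 20122172 to 39025042. Values below are CPM (counts scaled to library size), with TMM scaling factors from all 18 libraries, as mean ± SD with n = 3, unless a count is stated. Where no library of a group had more than 3 counts, the gene was taken to be at the floor there, which corresponded to 0.075 to 0.117 CPM for the 6 groups. Counts of 0 at this depth allow expression up to that floor, which covers counting error only. No source states whether the 3 libraries of a group came from separate cultures, so the errors and p-values measure the spread between these libraries, which may be technical.

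MAFG itself was higher in the 3 MAFG libraries than in the 3 GFP libraries of every line. It rose from 25.8 ± 2.91 to 53.1 ± 4.59 CPM in WM164 (log2 fold change 1.04 ± 0.09, SE, adjusted p = 6.37e-08 by edgeR's quasi-likelihood test) and from 24.1 ± 3.47 to 37.3 ± 1.54 CPM in SKMel28 (0.64 ± 0.10, adjusted p = 0.000128 by the same edgeR test). In A375 the values were 27.0 ± 4.98 and 47.3 ± 9.24 CPM, a log2 difference of 0.80 ± 0.17 that did not pass the edgeR test (adjusted p = 0.0655). It passed under 7 of 14 alternative settings, over which it ranged from 0.69 to 2.55. On the log2 scale of the deposited TPM plus 1, which divides by transcript length, the differences were larger, at 2.71, 1.85 and 2.33. Counts and TPM thus give different sizes of the overexpression in the same libraries, and the cause was not tested.

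A375 stood apart from the other lines in these genes. In the GFP controls, WM164 and SKMel28 expressed PMP22, MBP, S100B and CNP abundantly and POU3F1 and EGR2 at a low level, whereas A375 kept CNP and PMP22, alone expressed GFRA1, and had MBP and POU3F1 at the floor. By deposited TPM, which can be compared between genes, the order in WM164 GFP cells was S100B (128 ± 12.8), PMP22 (54.4 ± 6.99), MBP (38.0 ± 4.77), CNP (21.3 ± 0.981), POU3F1 (2.20 ± 0.42) and EGR2 (1.47 ± 0.42), and only the last pair overlapped between libraries. SKMel28 GFP cells had MBP first (365 ± 3.11 TPM), then S100B (237 ± 10.2 TPM), PMP22 (60.2 ± 2.01 TPM), CNP (31.5 ± 1.38 TPM), POU3F1 (2.36 ± 0.594 TPM) and EGR2 (1.39 ± 0.277 TPM), with no overlap between neighbours. A375 GFP cells had CNP (25 ± 1 TPM), PMP22 (16.8 ± 1.48 TPM) and GFRA1 (1.96 ± 0.514 TPM), with every other member of the group below 0.1 TPM. Among the genes expressed in all 3 lines, CNP was the 1 whose level differed by less than 2-fold between every pair of lines.

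GFP cells of different lines were compared in a model of all 18 libraries, in which a call needed an adjusted p of at most 0.05 and a log2 difference beyond 1 in either direction. Of the 8 genes, 1 was called between WM164 and SKMel28 cells, 6 between WM164 and A375 and 6 between SKMel28 and A375, where 28.7%, 46.7% and 43.8% of all 18767 genes tested were called. The 1 gene between WM164 and SKMel28 was MBP, 6.50-fold higher in SKMel28. S100B was 2790-fold higher in WM164 and 3560-fold higher in SKMel28 than in A375 GFP cells, EGR2 133-fold and 97.9-fold, and PMP22 4.59-fold and 3.50-fold. The folds of S100B and EGR2 are imprecise, since the A375 GFP libraries had 5, 2 and 1 S100B counts and 5, 0 and 0 EGR2 counts. Because A375 GFP libraries were at the floor, MBP was at least 1800-fold and at least 11700-fold higher in WM164 and SKMel28, and POU3F1 at least 98.5-fold and at least 72.8-fold. GFRA1 went the other way, at least 168-fold and at least 156-fold higher in A375 than in WM164 and SKMel28 GFP cells, which had no GFRA1 count.

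**Figure D1:**
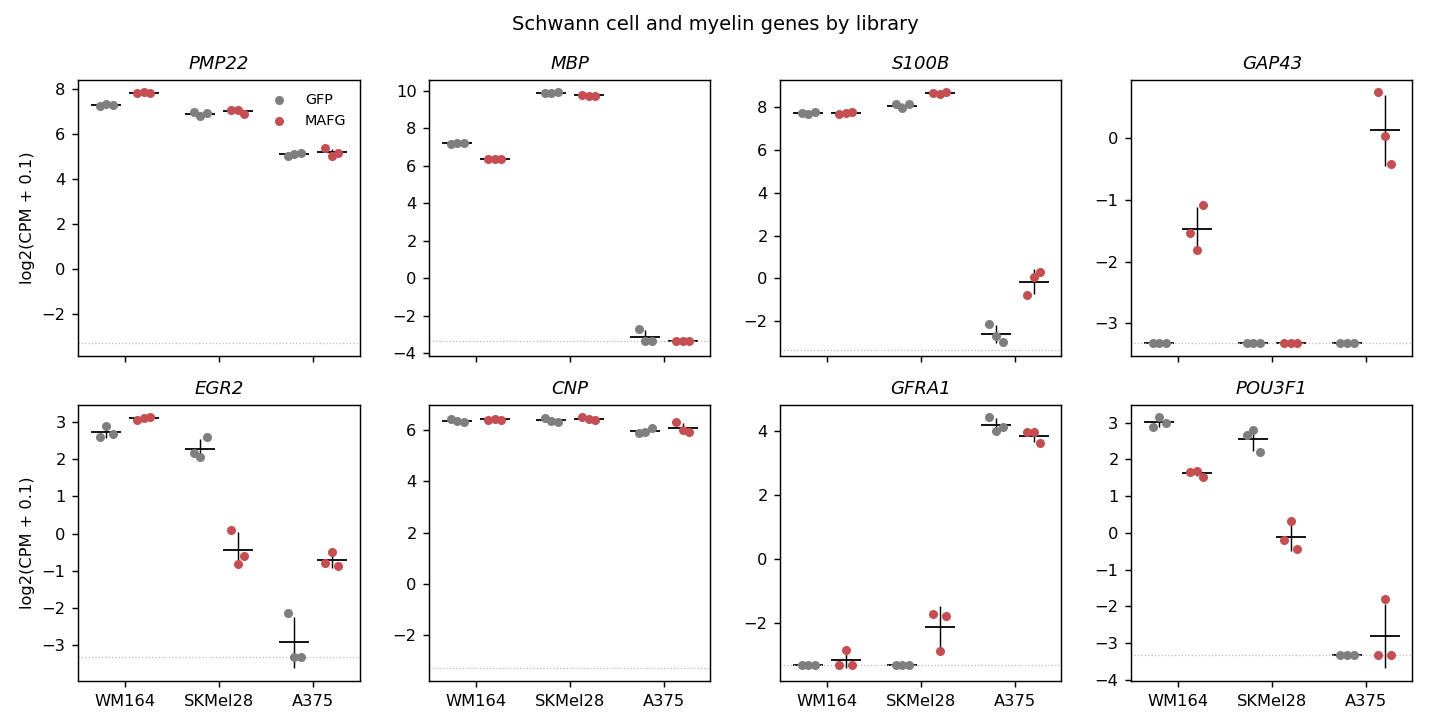
Expression of the 8 genes in each library as log2(CPM + 0.1), with GFP libraries in grey and MAFG libraries in red, horizontal bars at the mean and vertical bars for ± 1 SD of 3 libraries. The dotted line marks 0 CPM. POU3F1 is lower with MAFG in WM164 and SKMel28, EGR2 is lower with MAFG in SKMel28, and S100B, MBP, EGR2 and POU3F1 stand far lower in A375 than in the other lines.

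Within each line, 6 of the 8 genes had enough counts for the edgeR test of MAFG against GFP. Genes are said to pass at an adjusted p of at most 0.05, and to be called if the log2 fold change also exceeded 1 in size. Because the 8 genes were chosen with these values known, their counts are given as a description and nothing is read from them. In WM164, 1 of the 8 was called, lower, and 2 passed higher and 2 lower. In SKMel28, 2 were called, both lower, and 1 passed higher and 2 lower. In A375, 1 was called, higher, and no other passed. The A375 call, of GAP43, was not made in 5 of 11 alternative settings, which were the replicate block and the fits without A375 GFP replicate 1, 2 or 3 or without MAFG replicate 2. EGR2, counted among those higher in WM164, passed under only 4 of 14. Of all genes tested, 6.94% were called in WM164, 4.74% in SKMel28 and 0.665% in A375. The shares of all genes that passed as higher and as lower were 16.2% and 15.6% in WM164, 14.6% and 15.3% in SKMel28, and 0.78% and 0.0634% in A375. For WM164 and SKMel28 the tested genes of the group had median log2 fold changes of 0.04 and -0.04, beside -0.00 and -0.01 over all genes tested. No median is given for A375. There GAP43, S100B and EGR2 had few or no counts with GFP and entered the test only through their MAFG libraries. MBP and POU3F1 had too few counts for the test in A375. Bulk RNA cannot tell fewer cells that express a gene from less RNA in each cell.

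MBP was lower in the MAFG cells of WM164. Its level was 141, 150 and 146 CPM in the GFP libraries of WM164 and 82.3, 82.2 and 80.5 CPM in the MAFG libraries, a log2 fold change of -0.84 ± 0.05 (SE). All 3 MAFG libraries were well below the GFP libraries. In SKMel28, the line with the most MBP, the libraries had 937, 940 and 963 CPM with GFP and 870, 851 and 849 CPM with MAFG. These groups did not overlap either, but the difference was small (-0.14 ± 0.05). In A375, MBP had 2, 0 and 0 counts with GFP and 0 in all 3 MAFG libraries.

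PMP22 was higher with MAFG in WM164, the reverse of MBP in the same libraries. The GFP libraries of WM164 had 154, 160 and 159 CPM and the MAFG libraries 227, 233 and 227 CPM, which gave a log2 fold change of 0.54 ± 0.05 (1.45-fold). The pair of groups was separated by far more than the spread within them. In SKMel28 the levels were 120 ± 7.84 and 129 ± 9.25 CPM (0.10 ± 0.07) and in A375 34.4 ± 1.74 and 36.4 ± 4.44 CPM (0.08 ± 0.12), with overlapping libraries in both lines. The sign in SKMel28 depended on the measure, since the same difference was -0.05 on the log2(TPM + 1) scale.

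CNP hardly moved. The MAFG and GFP levels were 86.1 ± 0.75 and 83.3 ± 3.89 CPM in WM164, 88.3 ± 2.76 and 85.0 ± 5.19 CPM in SKMel28, and 69.1 ± 9.54 and 63.0 ± 4.87 CPM in A375. The log2 fold changes of CNP were 0.05 ± 0.06, 0.06 ± 0.06 and 0.13 ± 0.12. The libraries overlapped in all 3 lines. Of the 3 genes of myelin structure, then, WM164 had 1 lower, 1 higher and 1 within the spread.

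S100B was higher with MAFG in SKMel28, and higher from a very low level in A375, where the difference did not pass. The SKMel28 GFP libraries had 282, 246 and 284 CPM and the MAFG libraries 400, 398 and 416 CPM, a log2 fold change of 0.58 ± 0.06 (1.49-fold). Every MAFG library lay above every GFP library. In WM164, S100B was 212 ± 8.51 CPM with GFP and 215 ± 7.28 CPM with MAFG (0.02 ± 0.05). The A375 libraries had 5, 2 and 1 counts with GFP and 19, 36 and 48 counts with MAFG, or 0.0709 ± 0.0532 and 0.85 ± 0.331 CPM. The 3 MAFG libraries of A375 were all higher, with a log2 fold change of 3.52 ± 0.79 that ranged from 3.16 to 4.27 over the alternative settings. It passed under 4 of 11 of these settings. Even with MAFG, A375 remained far below the other lines in S100B.

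EGR2, the regulator of the myelinating state, was lower with MAFG in SKMel28, while its higher values in WM164 and A375 were less certain. In SKMel28 it was 4.33, 4.08 and 5.90 CPM with GFP and 0.968, 0.466 and 0.563 CPM with MAFG, a log2 fold change of -2.83 ± 0.31 that ranged from -3.20 to -1.02 over 14 alternative settings. All 3 MAFG libraries lay far below the lowest GFP library. In WM164, EGR2 was 5.89, 7.30 and 6.28 CPM with GFP and 8.22, 8.39 and 8.56 CPM with MAFG. These libraries did not overlap, and the log2 fold change was 0.37 ± 0.13, which passed under only 4 of 14 alternative settings. In A375 the counts were 5, 0 and 0 with GFP and 19, 23 and 19 with MAFG, a difference that did not pass and passed under 1 of 11 alternatives. Their log2 fold change of 3.43 ± 1.11 ranged from 2.88 to 7.31 over the alternatives, the highest without GFP replicate 1, the 1 GFP library with counts.

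POU3F1, which acts before EGR2 in Schwann cells, was lower with MAFG in both lines that expressed it. In WM164 it was 7.35, 8.76 and 7.86 CPM with GFP and 3.04, 3.10 and 2.78 CPM with MAFG, a log2 fold change of -1.43 ± 0.16. In SKMel28 the libraries had 6.30, 6.94 and 4.49 CPM with GFP and 0.767, 1.15 and 0.638 CPM with MAFG, a log2 fold change of -2.78 ± 0.27. The groups did not overlap in either line, and MAFG cells had 0.372 and 0.145 times the GFP level. Over 14 alternative settings the log2 fold change ranged from -1.49 to -0.73 in WM164 and from -3.05 to -1.36 in SKMel28. In A375, POU3F1 had 0 counts in 5 libraries and 7 counts in MAFG replicate 2. SKMel28 therefore had both regulators lower with MAFG, whereas WM164 had POU3F1 lower and a slightly higher EGR2 that passed under only 4 of 14 settings.

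GAP43 was read in MAFG libraries only. In A375 it had 0 counts in each GFP library and 62, 35 and 28 counts in the MAFG libraries, at least 12.9-fold higher against the floor of 3 counts per library. In WM164 the counts were 0, 0 and 0 with GFP and 7, 5 and 12 with MAFG, at least 2.46-fold higher, too few for the test. SKMel28 had no GAP43 count in any of its 6 libraries, which allows up to 0.117 CPM in the GFP cells and 0.107 CPM in the MAFG cells. The highest GAP43 level, in A375 MAFG cells, was 0.487 ± 0.16 TPM.

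GFRA1 was expressed mainly in A375. It had 821, 588 and 621 counts with GFP and 614, 586 and 519 counts with MAFG in A375, or 18.2 ± 2.82 and 14.4 ± 1.99 CPM. The MAFG libraries were the lower ones by a narrow gap, and the log2 fold change was -0.35 ± 0.15. In SKMel28 there were no GFRA1 counts with GFP and 6, 1 and 5 counts with MAFG. MAFG replicate 2, with 1 count, lay within the floor of 3 counts, so no fold is given. WM164 had a single GFRA1 count, in a MAFG library. RET, the kinase that signals with GFRA1, was not tested in any line and had 0 CPM in A375.

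**Figure D2:**
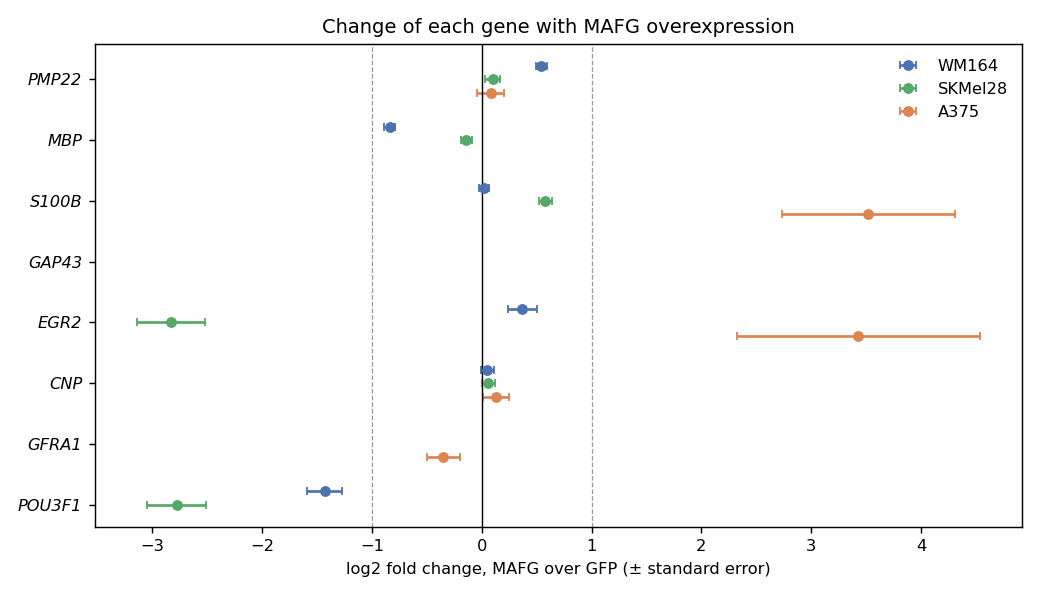
Log2 fold change of MAFG over GFP with its standard error for each gene and line, for genes tested and above the floor in both groups. Dashed lines mark a log2 fold change of -1 and 1. POU3F1 (-1.43 and -2.78) and EGR2 in SKMel28 (-2.83) lie to the left of them, S100B (3.52) and EGR2 (3.43) in A375 lie to the right with wide errors, and CNP stays near 0 in all lines.

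The responses of the lines were set against each other in the model of all 18 libraries, where 5.1% of all genes were called between WM164 and SKMel28, 4.39% between WM164 and A375 and 4.2% between SKMel28 and A375. Of the 8 genes, 1, 3 and 4 were called. The model shares a single estimate of the spread over all lines, which can understate the error for A375. Within A375 alone, the standard errors of the S100B and EGR2 responses were 0.79 and 1.11. MAFG against GFP in A375 gave 105 called genes from its own 6 libraries and 311 from the model of all 18. EGR2 differed by 3.20 ± 0.46 (SE, log2) between WM164 and SKMel28, by -3.02 ± 0.68 between WM164 and A375 and by -6.22 ± 0.67 between SKMel28 and A375. S100B differed by -3.48 ± 0.41 and -2.92 ± 0.42 between WM164 or SKMel28 and A375, whose S100B response was larger but did not pass within that line. PMP22 (0.44 ± 0.12), MBP (-0.69 ± 0.11) and POU3F1 (1.36 ± 0.54) differed by less between WM164 and SKMel28. The other calls were of POU3F1 and GFRA1 against groups at the floor, and no difference is given for them.

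Among the 18767 genes in the model of all libraries, the patterns most like those of the 8 genes were sought by Pearson's r of log2 CPM over the 18 libraries, as a description. MBP was closest to CADPS (0.999), S100B to SOX6 (0.998), PMP22 to LMO4 (0.994), CNP to TMEM255B (0.951), POU3F1 to ZNF516 (0.983), EGR2 to A2M (0.968), GFRA1 to the lncRNA LINP1 (0.998) and GAP43 to ARPP21 (0.899). These 18 points share 3 lines and fall into clusters by line, so that any gene with the same order of lines scores highly. Within the group, r was 0.97 for MBP with S100B, 0.90 for EGR2 with POU3F1 and -0.96 for GFRA1 with PMP22, S100B or POU3F1.

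The response of 113 other genes was tested in the same fits, and by counts more of them rose than fell with MAFG in each line. They are genes of Schwann cells and myelin together with 22 paralogs of the 8 genes. The paralogs were listed as relatives of the 8, and some are not Schwann cell or myelin genes. These lists were chosen with earlier results of the data known, and no list was tested as a whole. In WM164, 41 of the 88 tested genes rose and 12 fell (46.6% and 13.6%, beside 16.2% and 15.6% of all genes). In SKMel28, 29 of 79 rose and 16 fell (36.7% and 20.3%, beside 14.6% and 15.3%). In A375, 8 of 80 rose and 0 fell (10% and 0%, beside 0.78% and 0.0634%), and this count was 6 without GFP replicate 1 and 13 without MAFG replicate 1. The median log2 fold change was 0.18, 0.04 and 0.08. The split depended on the measure in SKMel28. On log2(TPM + 1), where the median of all genes itself was shifted by 0.14 in WM164, -0.14 in SKMel28 and -0.10 in A375, 12 panel genes rose and 16 fell in SKMel28, 32 rose and 4 fell in WM164, and 5 rose and 0 fell in A375. The median of the panel lay 0.17, 0.08 and 0.09 above that of all genes on this scale. GFRA4, GFRAL, OPALIN, POU3F4 and SCN7A were at the floor in all 18 libraries.

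The list of myelin proteins and lipid enzymes had the most genes that rose in WM164, 11 of 19, with 2 that fell and a median log2 fold change of 0.80. In SKMel28, 8 of 15 of the list rose and 2 fell (median 0.25), and in A375 0 of 12 passed (median -0.07). In WM164, MOG, a protein of central myelin, was at the floor with GFP and at 37, 15 and 18 counts with MAFG, at least 7.40-fold higher (adjusted p = 0.000365, edgeR). DRP2, which anchors periaxin at the outer Schwann cell membrane, rose from 0.294 ± 0.33 to 1.91 ± 0.238 CPM in WM164 (2.74 ± 0.56, adjusted p = 0.00108, edgeR). NFASC, a cell adhesion protein of the node of Ranvier, fell from 1.04 ± 0.258 to 0.18 ± 0.105 CPM in SKMel28 (-2.50 ± 0.58, adjusted p = 0.00386, edgeR) and rose from 2.78 ± 0.795 to 9.33 ± 0.292 CPM in WM164 (1.74 ± 0.18, adjusted p = 7.43e-07, edgeR).

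Among Schwann transcription factors, 9 of 20 rose and 4 fell in WM164, 7 rose and 3 fell in SKMel28, and 2 rose and 0 fell in A375. The medians were 0.11, 0.14 and 0.00. SOX10, which specifies Schwann cells and melanocytes, was high in WM164 and SKMel28 (1370 ± 54.9 and 892 ± 9.41 CPM with GFP) and did not pass there, with log2 fold changes of -0.04 ± 0.05 and 0.03 ± 0.06. In A375 it rose from 8.85 ± 2.35 to 114 ± 24.5 CPM (3.68 ± 0.21, adjusted p = 2.12e-05, edgeR), from 266, 300 and 411 counts to 5630, 3855 and 4208 counts. FOXD3, a neural crest factor, fell in SKMel28 from 11.5 ± 1.10 to 5.55 ± 0.955 CPM (-1.05 ± 0.16, adjusted p = 9.23e-05, edgeR).

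The other EGR genes differed between themselves. EGR1 had the same directions as EGR2 in WM164 and SKMel28. It rose from 114 ± 5.66 to 208 ± 16.2 CPM in WM164 (0.86 ± 0.06, adjusted p = 7.32e-09, edgeR) and fell from 212 ± 18.2 to 116 ± 3.29 CPM in SKMel28 (-0.87 ± 0.07, adjusted p = 8.57e-08, edgeR). EGR3 rose in all 3 lines, by 0.46 ± 0.06 in WM164, 1.03 ± 0.11 in SKMel28 and 4.77 ± 0.45 in A375, there from 8, 6 and 2 counts to 199, 131 and 152 counts (adjusted p = 1.51e-05, 2.93e-06 and 0.000473, edgeR). EGR4 rose in WM164 from 0.15 ± 0.129 to 0.718 ± 0.341 CPM (2.20 ± 0.65, adjusted p = 0.0148, edgeR). This rise was lost in 4 of 11 alternative settings, and EGR4 had too few counts for the test in SKMel28 and A375. In SKMel28, EGR2 was therefore lower beside a lower EGR1 and a higher EGR3. POU3F2, the closest relative of POU3F1 with counts, rose in SKMel28 from 58.7 ± 2.60 to 87.9 ± 4.37 CPM (0.58 ± 0.06, adjusted p = 5.21e-06, edgeR) while POU3F1 was lower.

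Genes of immature and repair Schwann cells included 8 of 15 that rose and 2 that fell in WM164, 6 of 13 and 2 in SKMel28, and 3 of 14 and 0 in A375. The medians were 0.55, 0.27 and 0.40. NGFR, the low-affinity neurotrophin receptor of immature and denervated Schwann cells, rose from 11.8 ± 2.09 to 68.8 ± 6.65 CPM in SKMel28 (2.54 ± 0.11, adjusted p = 1.58e-10, edgeR) and from 6.14 ± 0.451 to 20.5 ± 2.24 CPM in WM164 (1.74 ± 0.12, adjusted p = 1.76e-09, edgeR). In A375, NGFR was 1.72 ± 0.374 and 1.01 ± 0.27 CPM and did not pass. NES, the intermediate filament nestin, rose in WM164 (3.01 ± 0.15, adjusted p = 4.82e-11, edgeR) and A375 (1.79 ± 0.12, adjusted p = 4.98e-05, edgeR). Its rise in SKMel28, from 4, 7 and 6 counts to 25, 14 and 20, passed narrowly (adjusted p = 0.0474, edgeR). It was lost in 9 of 11 alternative settings, which were DESeq2, no count filter, the replicate block and leaving out any 1 of the 6 libraries.

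Within the same list, GAS7 rose in A375 from 4, 5 and 0 counts to 314, 289 and 349 counts (6.55 ± 0.47, adjusted p = 6.43e-05, edgeR) and in WM164 from 479 ± 1.82 to 704 ± 23.0 CPM (0.55 ± 0.05, adjusted p = 1.08e-07, edgeR). CDH19, a cadherin of Schwann cell precursors, fell in SKMel28 from 16.6 ± 0.939 to 6.08 ± 0.944 CPM (-1.45 ± 0.13, adjusted p = 9.29e-07, edgeR). NCAM1, an adhesion molecule of non-myelinating Schwann cells that also binds GDNF with GFRA1, fell in WM164 from 80.6 ± 1.5 to 26.3 ± 1.58 CPM (-1.61 ± 0.07, adjusted p = 5.2e-12, edgeR).

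**Figure D3:**
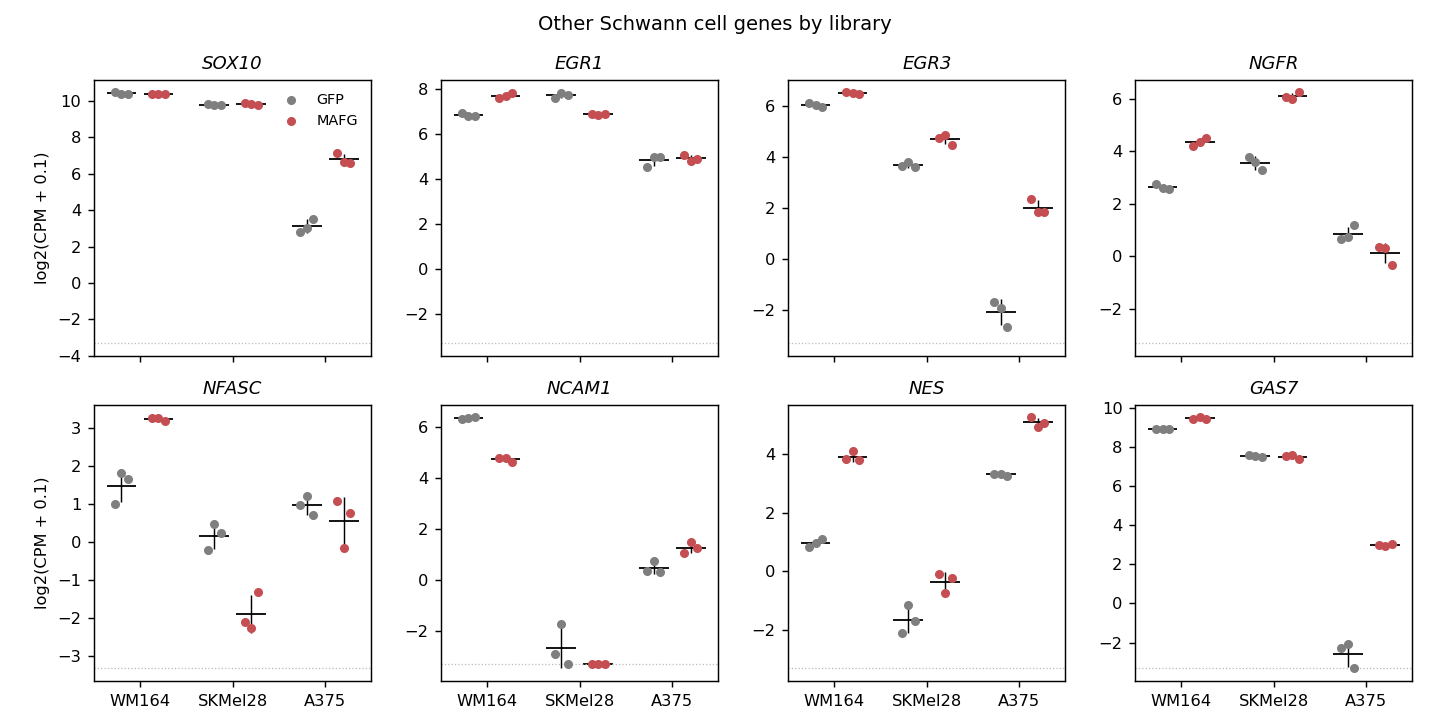
Expression of 8 other Schwann cell genes in each library as log2(CPM + 0.1), with GFP in grey, MAFG in red, bars at the mean and ± 1 SD of 3 libraries and a dotted line at 0 CPM. NGFR is higher with MAFG in WM164 and SKMel28 (from 11.8 to 68.8 CPM in SKMel28), NFASC is higher in WM164 and lower in SKMel28, and SOX10, EGR3 and GAS7 are higher in A375.

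Axon signals and their receptors were divided in SKMel28, where 4 of 16 rose and 5 fell (median -0.10). In WM164, 7 of 18 rose and 2 fell (median 0.02), and in A375 3 of 17 rose and 0 fell (median 0.04). LAMA2, a laminin of the Schwann cell basal lamina, fell in WM164 from 26.1 ± 2.57 to 7.66 ± 1.02 CPM (-1.76 ± 0.11, adjusted p = 1.14e-09, edgeR). The fall of LAMA2 was -0.55 on log2(TPM + 1) and did not pass on that scale or on log2(TPM + 0.1). ERBB3, the neuregulin receptor, LPAR1 and LAMA4 were the 3 genes that rose in A375, and they are named after their values were seen. All 3 also passed as higher in WM164 (0.28 ± 0.06, 1.37 ± 0.15 and 0.76 ± 0.06) and SKMel28 (0.30 ± 0.05, 0.69 ± 0.14 and 0.70 ± 0.06). The SKMel28 rises of all 3 and the WM164 rise of ERBB3 were lost on at least 1 TPM scale. In A375, ERBB3 went from 4.38 ± 0.827 to 26.3 ± 2.95 CPM (2.58 ± 0.17, adjusted p = 4.75e-05, edgeR), whereas the A375 rises of LPAR1 and LAMA4 were lost in 9 and 7 of 14 alternative settings. Leaving out any 1 GFP library or MAFG replicate 2 was among these settings for both genes, and leaving out MAFG replicate 3 for LPAR1.

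Of the GDNF family receptors and ligands, 1 of 6 tested genes rose and 1 fell in WM164, and 0 of 5 in SKMel28 and 0 of 4 in A375 passed, with medians of -0.14, -0.20 and 1. The gene that rose was GDNF itself, the ligand of GFRA1, from 0.606 ± 0.13 to 1.64 ± 0.298 CPM in WM164 (1.44 ± 0.39, adjusted p = 0.00867, edgeR), where GFRA1 was at the floor. The gene that fell was NCAM1. Both genes are also in the list of immature and repair Schwann cell genes.

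Among the paralogs of the 8 genes, 8 of 15 rose and 2 fell in WM164, 6 of 14 rose and 5 fell in SKMel28, and 1 of 17 rose and 0 fell in A375, with medians of 0.40, 0.01 and 0.14. This list overlaps others, since EGR1, EGR3 and POU3F2 are also counted among the transcription factors. The paralog that rose in A375 was EGR3. The relatives of PMP22 were divided. EMP1 fell in WM164 from 204 ± 8.76 to 83.9 ± 5.43 CPM (-1.28 ± 0.06, adjusted p = 1.92e-11, edgeR) while PMP22 was higher, and EMP2 rose there from 35.4 ± 2.40 to 65.0 ± 1.75 CPM (0.88 ± 0.07, adjusted p = 2.01e-08, edgeR), the direction of PMP22. EMP3 fell in WM164 from 56.9 ± 1.74 to 45.6 ± 2.33 CPM (-0.32 ± 0.07, adjusted p = 0.0013, edgeR). Of the S100 genes, S100A4 (1.57 ± 0.19, adjusted p = 3.85e-06, edgeR) and S100A16 (0.84 ± 0.12, adjusted p = 2.09e-05, edgeR) rose in WM164. S100A13 (0.44 ± 0.08, adjusted p = 0.000403, edgeR) and S100A1 (0.40 ± 0.06, adjusted p = 5.21e-05, edgeR) also rose there. In SKMel28, S100A6 (1.07 ± 0.15, adjusted p = 5.59e-05, edgeR) and S100A10 (0.34 ± 0.08, adjusted p = 0.00287, edgeR) rose, S100A10 not on the TPM scales. S100A11 passed in no line, and no listed S100 gene passed in A375. BASP1, a growth-cone protein of the same functional family as GAP43, rose in SKMel28 from 6, 1 and 0 counts to 21, 47 and 28 (3.65 ± 0.76, adjusted p = 0.00169, edgeR). SKMel28 was the line with no GAP43 count, and BASP1 was 92.5 ± 5.48 CPM in the GFP cells of A375.

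**Figure D4:**
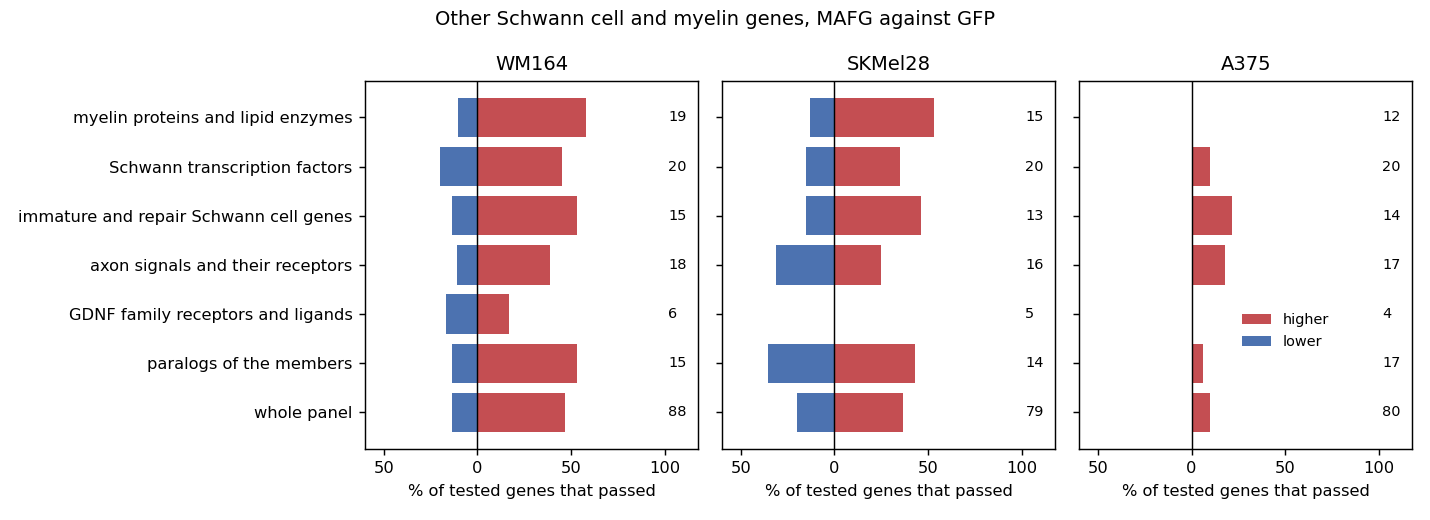
Share of tested genes that passed as higher (red, right) or lower (blue, left) with MAFG, in percent, for each list of other Schwann cell and myelin genes and for the whole panel, by line. The number at the right of each bar is the number of genes tested. Some lists share genes, which the whole panel counts once. For the whole panel the bars are 46.6% and 13.6% in WM164, 36.7% and 20.3% in SKMel28, and 10% and 0% in A375.

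Markers of the labelled tissue and of other cell types were summed as deposited TPM in each library. The 7 melanocyte lineage markers summed to 902 to 1250 TPM with GFP and 593 to 685 TPM with MAFG in WM164, and to 1790 to 1960 and 1310 to 1490 TPM in SKMel28. In A375 they summed to 12.2 to 13 TPM with GFP and 36.0 to 47.6 TPM with MAFG, and MLANA and TYR, defining markers of the melanocyte lineage, were at 0 in both A375 groups. A list of 13 Schwann cell markers, which includes all 8 genes, among them GAP43 and GFRA1 of immature cells, summed to 299 to 370 and 418 to 449 TPM in WM164 and to 743 to 762 and 742 to 807 TPM in SKMel28. In A375 the sums were 44.2 to 46.6 and 45.1 to 49.3 TPM. SOX10, 1 of the melanocyte lineage markers, had 2.61 ± 0.53 and 32.1 ± 2.46 TPM in the GFP and MAFG cells of A375. Oligodendrocyte markers summed to at most 4.07 TPM in any library, with OPALIN at 0 in all 6 groups, neuron markers to at most 3.54 TPM, macrophage markers to at most 0.75 TPM, keratinocyte markers to at most 0.91 TPM and endothelial markers to at most 0.81 TPM. Fibroblast markers summed to 6.36 to 7.10 TPM with GFP and 10.3 to 12.7 TPM with MAFG in SKMel28 and to at most 7.16 TPM elsewhere. The summed melanocyte lineage markers were thus lower with MAFG in WM164 and SKMel28 and higher in A375, with no overlap between groups, but the single markers did not all go the same way. By counts, PMEL, MLANA, TYR, DCT and MITF fell in WM164, where SOX10 did not pass. In SKMel28, PMEL fell from 1700 ± 126 to 1070 ± 79.3 CPM (-0.66 ± 0.07, adjusted p = 2.93e-06, edgeR), MITF and TYR fell by less, TYRP1 rose (0.33 ± 0.07, adjusted p = 0.00161, edgeR), and MLANA, DCT and SOX10 did not pass. The higher sum in A375 was mostly SOX10. The part of these markers in the results was not tested.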

How the data were processed

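RNA sequencing of 18 libraries was used, 3 in each of 6 groups assigned from the cell line and treatment in the labels. The authors trimmed reads with cutadapt 1.8.1, aligned them to GRCh38 with STAR 2.7.7a and assigned uniquely aligned reads to genes with featureCounts, and the deposited counts are whole numbers without normalization. The deposited TPM values are scaled to transcript length and to a fixed sum per library, and RSEM 1.3.0 is among the tools the labels list. The labels name a non-stranded library kit and the methods a stranded one. The annotation release is not given in the sources used here.

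Counts were tested with R 4.3.3 and edgeR 4.0.16 (TMM normalization, filterByExpr, quasi-likelihood test, Benjamini-Hochberg adjustment over all genes tested), on the 6 libraries of a line for MAFG against GFP and on all 18 for differences between lines. A call needed an adjusted p of at most 0.05 and a log2 fold change beyond 1 in either direction. The 8 genes, the gene lists and the tests were chosen with earlier results of these data known. Text names all 8 genes, MAFG, the 3 panel genes with the largest change in each line and direction among those that passed without overlap, panel genes at the floor throughout, paralogs, and for each of the 8 genes the pattern most like it. A panel gene that this rule selects is not reported here. DESeq2 1.42.0, limma 3.58.1 on log2(TPM + 1) and log2(TPM + 0.1), other filters and sample sets were alternatives. Of 58825 gene identifiers, 58472 (99.4%) were in GENCODE release 44. Promoters of 7 of the 8 genes were taken from RefSeq (GRCh38.p14).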

Additional observations from a re-analysis of the deposited data

Results flagged for a closer look

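Several responses differed between lines in the model of all 18 libraries, given here as the difference of log2 fold changes (first line minus second) with its standard error. That model shares a single estimate of the spread over all lines, which can understate the errors of differences from A375. The EGR2 differences were also called in this model, at 3.20 ± 0.46 for WM164 minus SKMel28 and -6.22 ± 0.67 for SKMel28 minus A375. EGR2 was chosen with these values known, so they are given as a description. Of the EGR2 changes within lines, only the fall in SKMel28 passed under all 14 alternative settings.

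The other differences are of genes outside the group of 8 and were each called by edgeR, with p-values adjusted over 18767 genes. NFASC, which rose in WM164 and fell in SKMel28, differed by 4.24 ± 0.55 (WM164 minus SKMel28), 2.10 ± 0.45 (WM164 minus A375) and -2.14 ± 0.57 (SKMel28 minus A375). Against A375, NGFR differed by 2.52 ± 0.27 in WM164 and 3.32 ± 0.27 in SKMel28. Genes with the larger rise in A375 were SOX10, at -3.73 ± 0.19 (WM164) and -3.66 ± 0.19 (SKMel28), GAS7, at -5.98 ± 0.25 and -6.56 ± 0.25, and EGR3, at -4.30 ± 0.30 and -3.73 ± 0.32. CDH19 differed by 1.5 ± 0.16 for WM164 minus SKMel28 and by -2.27 ± 0.23 for SKMel28 minus A375. NES differed by 1.33 ± 0.42 for WM164 minus SKMel28 and 1.22 ± 0.22 for WM164 minus A375. The SKMel28 response of NES, from 0.228 ± 0.107 to 0.696 ± 0.173 CPM, rests on few counts and was lost in 9 of 11 alternative settings. For WM164 minus A375, LAMA2 differed by -3.28 ± 0.53, NCAM1 by -2.44 ± 0.25 and EMP1 by -1.21 ± 0.10. Part of the first pair is a higher A375 level with MAFG that did not pass within A375. There LAMA2 had 0.423 ± 0.154 and 1.22 ± 0.573 CPM, with overlapping libraries, and NCAM1 1.3 ± 0.242 and 2.3 ± 0.355 CPM. The WM164 fall of LAMA2 did not pass on either TPM scale. BASP1 differed by 3.49 ± 0.64 for SKMel28 minus A375 and FOXD3 by 1.10 ± 0.23 for WM164 minus SKMel28.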

How the results depend on the processing

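The fold changes of the 8 genes kept within the spread between replicates in 222 of 243 alternative values, and 21 moved by more. Their sign changed only for PMP22 in SKMel28 and S100B in WM164. For the other named genes, 1166 of 1242 alternative values kept their direction and their side of the threshold, 55 no longer passed, 19 newly passed and 2 reversed. The 2 were EMP2 in SKMel28, with -0.18 on log2(TPM + 1) and -0.20 on log2(TPM + 0.1).

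Counts of called genes were 1105 in WM164, 736 in SKMel28 and 105 in A375. With at least 10 counts in every library they were 734 in WM164 and 64 in A375, on log2(TPM + 1) 383, 218 and 24, on log2(TPM + 0.1) 602, 395 and 28, and with no limit on the fold change 5065 in WM164 and 4640 in SKMel28. The A375 count was 181 with DESeq2, 216 with no count filter and 311 with all 18 libraries in the model. Leaving out 1 library gave 1051 to 1103, 678 to 726 and 55 to 153, the A375 extremes without MAFG replicate 2 and without MAFG replicate 1.

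Differences in response (957 for WM164 minus SKMel28, 823 for WM164 minus A375 and 788 for SKMel28 minus A375) came to 510, about 3.8e+02 and 366 with at least 10 counts, 2573, 1728 and 1784 with no limit, and 839 to 1063, 692 to 1003 and 663 to 888 without 1 library. On log2(TPM + 1) the second was 430 and the third 254, and on log2(TPM + 0.1) the third was 481. Differences in GFP level (5389, 8756 and 8215) came to 2639, 4607 and 4292 with at least 10 counts, 10661, 13415 and 12869 with no limit, and 5122 to 5545, 8593 to 9046 and 7977 to 8487 without 1 library. On log2(TPM + 1) the second and the third were 5722 and 4783.

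Panel genes that passed (53 in WM164, 45 in SKMel28, 8 in A375) were 33 in WM164 and 24 in SKMel28 on log2(TPM + 0.1), 28 in SKMel28 on log2(TPM + 1), and 19 and 11 with a fold change above 2 as well. In A375 they were 5 with at least 10 counts and on both TPM scales, and 23 with all 18 libraries. Without 1 library they ranged over 49 to 51, 38 to 45 and 6 to 13.

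With the replicate number as a block, 64 genes were called in A375, 1056 in WM164 and 716 in SKMel28. The numbers did not pair the libraries, since deviations of same-numbered GFP and MAFG libraries correlated at -0.0397 to 0.0302. The cause of these changes was not tested. Low counts limit the precision of the fold changes of S100B, EGR2 and GAP43 in A375. GFRA1 in SKMel28 had too few counts for a fold change.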
